A study of Homo sapiens with 9 samples.

Results

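Heme oxygenase 1, the biliverdin reductases and the enzymes of heme synthesis were followed across 9 RNA-seq libraries labelled HepG2. The 9 genes, HMOX1, HMOX2, BLVRA, BLVRB, ALAS1, ALAD, UROD, CPOX and FECH, were taken by name from the 58174 genes of the deposited table, and each name matched 1 row. HMOX1 was selected on its measured TPM in these groups, where it was already known to differ, so its levels are given as a description with no test. The other 8 genes were added for their place in the pathway, with earlier results of these data known.

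Of the 9 libraries, 3 came from a line overexpressing NFE2L1, 3 from a line overexpressing NFE2L1DC and 3 from control cells, which the labels call wild type and the protocol text names by the empty pLVX vector. NFE2L1 belongs to the cap'n'collar transcription factors, is held in the membrane of the endoplasmic reticulum and is cut free when proteasomes fail. In the protocol NFE2L1DC carries a delta sign, which usually stands for a deletion. The C may stand for the C-terminal part, a reading of the name only. The extent of the deletion, the promoter of the transgenes and whether a line is 1 clone or a pool were not stated in the labels.

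Heme is built from glycine and succinyl-CoA along a path that begins and ends in the mitochondrion. ALAS1 makes the first intermediate and sets the pace in non-erythroid cells, enzymes such as ALAD, UROS and UROD build and trim the ring in the cytosol, and CPOX, PPOX and FECH finish it. Heme oxygenase opens the ring to biliverdin, carbon monoxide and ferrous iron, and biliverdin reductase turns biliverdin into bilirubin. HMOX1 is the inducible heme oxygenase, known to answer to heme, oxidants and metals through NFE2L2 and, with the opposite sign, the heme-sensing repressor BACH1. HMOX2 is the constitutive form.

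The liver identity given by the labels was not borne out by the data. Of 8 hepatocyte markers (ALB, AFP, APOA1, APOB, TTR, SERPINA1, FGB and HNF4A), none reached 1 TPM in any library, and ALB, APOB, TTR, SERPINA1 and FGB were listed at 0 in all 9. Their summed level was 0.0312 to 0.285 TPM in NFE2L1 libraries, 0.0578 to 0.227 TPM in NFE2L1DC libraries and 0.0452 to 0.114 TPM in control libraries. All 8 housekeeping genes looked at were present, with GAPDH between 10400 and 14500 TPM. The cells are therefore called by their group names, or as labelled HepG2, throughout. TPM is a length-normalised abundance scaled to the same total in every library, so a change in abundant genes shifts all others.

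NFE2L1 itself checked the labels. It stood at 207, 181 and 354 TPM in NFE2L1 libraries, at 445, 427 and 472 TPM in NFE2L1DC libraries and at 104, 81.7 and 64.0 TPM in control libraries. Both overexpressing groups lay above every control library, and gene-level TPM does not separate transgene from endogenous transcript. The control libraries differed among themselves. On the first principal component (41.9% of variance) control replicates 1 and 2 lay at -43.8 and control replicate 3 at 4.96, close to NFE2L1DC replicates 2 and 3. Control replicate 3 stood apart from the other libraries on the second principal component, at -37.9 against -3.64 to 10.9. Its deviation from control replicates 1 and 2 had a Spearman's rho of -0.668 with GC content over 11445 genes. The log2 fold changes of the contrasts also followed GC content. Their rho was -0.439 for NFE2L1 against control, -0.368 for NFE2L1DC against control and -0.241 for NFE2L1 against NFE2L1DC. These values are across genes, and genes are no independent replicates. The longest transcripts of the 9 heme genes had GC contents between 44.3% and 58.2%.

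HMOX1 (ENSG00000100292, GRCh38 chromosome 22, 35380361 to 35394214, plus strand) was high in one group alone. It stood at 262, 288 and 287 TPM in NFE2L1 libraries, at 23.8, 28.1 and 28.3 TPM in NFE2L1DC libraries and at 35.0, 43.8 and 29.8 TPM in control libraries. The lowest NFE2L1 library was above the highest library of either other group by a wide margin. The group means were 279 ± 14.6 TPM with NFE2L1, 26.7 ± 2.55 TPM with NFE2L1DC and 36.2 ± 7.06 TPM in control (SD, n = 3 each). NFE2L1DC lay under control without overlap, which held for 8.98% of all genes, but their nearest libraries were 28.3 and 29.8 TPM, closer to each other than the control SD. The ratio of mean TPM was 7.70 for NFE2L1 against control, 0.739 for NFE2L1DC against control and 10.4 for NFE2L1 against NFE2L1DC. Among the 14118 genes fitted, HMOX1 had the highest log2 fold change of NFE2L1 against NFE2L1DC, at 3.34 (SE 0.14), and ranked 11 of 14118 for NFE2L1 against control, at 2.93 (SE 0.14). Against control, NFE2L1DC had a log2 fold change of -0.41 (SE 0.14), rank 867 counted from the lowest. The scale of these and all later log2 fold changes is log2(TPM + 1), and the contrasts of both lines with control share the same 3 control libraries.

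**Figure D1:**
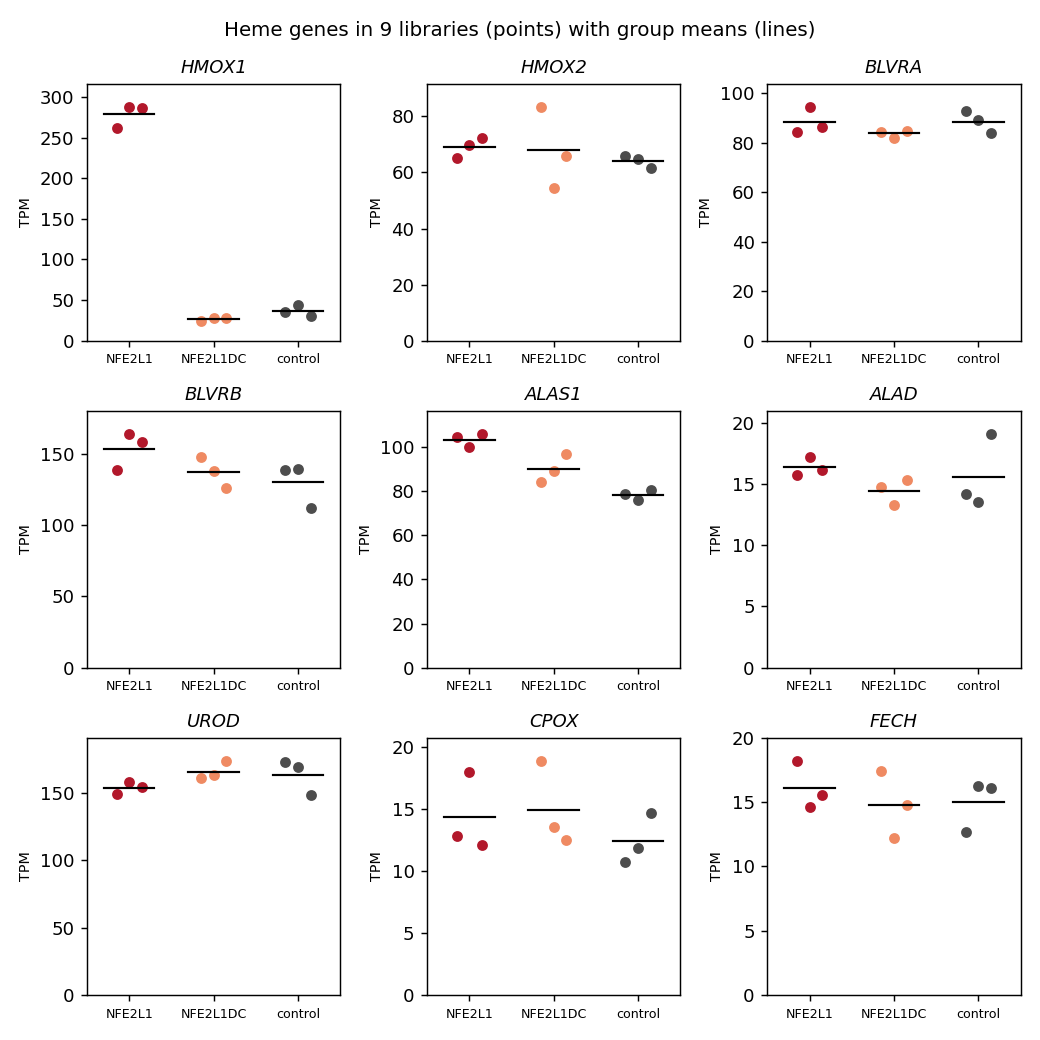
TPM of the 9 heme genes (vertical axes, linear, from 0) in NFE2L1, NFE2L1DC and control libraries. Points are libraries and lines are group means of 3. HMOX1 was at 262 to 288 TPM in NFE2L1 libraries and under 44 TPM in all others, while the levels of the other 8 genes lay close together across groups.

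Macrophages, which recycle the heme of red cells, are known for high HMOX1. Of 6 macrophage markers, PTPRC, CD163 and MARCO were listed at 0 in all 9 libraries, and 2 reached 1 TPM, CD68 and CSF1R. CD68, a lysosomal protein made by many cell types, was at 36.8, 33.8 and 41.6 TPM in NFE2L1 libraries, 24.7, 24.5 and 26.4 TPM in NFE2L1DC libraries and 23.0, 22.3 and 22.1 TPM in control libraries. CSF1R was not higher with NFE2L1, at 1.92, 1.66 and 1.96 TPM. It was at 4.15, 1.92 and 2.63 TPM in NFE2L1DC libraries and 2.66, 1.86 and 2.20 TPM in control libraries. The summed level of the list was 35.8 to 43.7 TPM in NFE2L1 libraries, 26.5 to 29.2 TPM in NFE2L1DC libraries and 24.2 to 25.8 TPM in control libraries, and it was almost all CD68. Of 7 erythroid markers, HBB and HBG1 were among those at 0 in all libraries, and the list summed to 2.68 to 4.13 TPM, 2.69 to 3.62 TPM and 2.22 to 3.61 TPM in NFE2L1, NFE2L1DC and control libraries. Of 6 fibroblast markers, COL1A2 was at 0 in all libraries. The 3 that reached 1 TPM were COL1A1, at 15.9 to 22.2 TPM over the 9 libraries, PDGFRB and DCN. The list summed to 20.5 to 29.2 TPM in NFE2L1 libraries, 24.6 to 28.5 TPM in NFE2L1DC libraries and 27.1 to 34.2 TPM in control libraries. The part of CD68-bearing cells in the HMOX1 level was not tested. In bulk RNA, more cells carrying a transcript and more of it per cell cannot be told apart.

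HMOX2 (ENSG00000103415, chromosome 16, 4474690 to 4510347, plus strand) did not follow HMOX1. It was at 65.3, 69.9 and 72.3 TPM in NFE2L1 libraries, 83.4, 54.5 and 65.7 TPM in NFE2L1DC libraries and 65.7, 64.8 and 61.7 TPM in control libraries. The groups overlapped, and NFE2L1DC replicates 1 and 2 were the highest and the lowest of all 9 libraries. Its log2 fold change was 0.11 for NFE2L1 against control (95% interval -0.20 to 0.41, limma adjusted p = 0.612) and 0.06 for NFE2L1DC against control (-0.25 to 0.37, adjusted p = 0.812). HMOX2 overlaps the protein-coding gene NMRAL1 on the other strand, which reached up to 66.1 TPM, and whether the libraries keep strand was not stated in the labels.

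The balance of the heme oxygenases therefore differed between the groups. HMOX1 TPM divided by HMOX2 TPM was 4.01, 4.12 and 3.96 in NFE2L1 libraries, 0.285, 0.516 and 0.431 in NFE2L1DC libraries and 0.533, 0.675 and 0.483 in control libraries. HMOX1 made up 80.1% ± 0.304 of the summed heme oxygenase TPM with NFE2L1, 28.8% ± 6.03 with NFE2L1DC and 35.9% ± 3.99 in control (SD, n = 3 each). HMOX2 was the more abundant of the pair in all 6 libraries of the NFE2L1DC and control groups, and the less abundant in all 3 NFE2L1 libraries. The sum of both was 348 ± 18.0 TPM with NFE2L1, 94.6 ± 12.3 TPM with NFE2L1DC and 100.3 ± 8.55 TPM in control. These ratios contain HMOX1 and describe its choice in another form.

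The next step of heme breakdown showed no call. BLVRA (ENSG00000106605, chromosome 7, 43758680 to 43807342), which reduces biliverdin IX alpha to bilirubin, was at 84.3, 94.5 and 86.3 TPM in NFE2L1 libraries, 84.5, 82.0 and 84.7 TPM in NFE2L1DC libraries and 92.8, 89.1 and 83.9 TPM in control libraries. The groups overlapped within a narrow band. Its log2 fold change for NFE2L1 against control was -0.0044 (95% interval -0.18 to 0.17, adjusted p = 0.973), and its sign turned in alternative fits. BLVRB (ENSG00000090013, chromosome 19, 40447765 to 40465840, minus strand), a flavin and biliverdin reductase, was at 139, 164 and 158 TPM in NFE2L1 libraries, 148, 138 and 126 TPM in NFE2L1DC libraries and 139, 139 and 112 TPM in control libraries. Control replicate 3 was its lowest library, and NFE2L1 replicate 1 lay within the control range. The log2 fold change of BLVRB for NFE2L1 against control was 0.24 (95% interval -0.0027 to 0.49, limma adjusted p = 0.168) and did not pass the test. It was 0.48 and passed after a correction of each library for GC content and length (adjusted p = 0.0153), and was 0.06 under median-of-ratios scaling (adjusted p = 0.835). For NFE2L1DC against control the adjusted p-values were 0.561 for BLVRA and 0.668 for BLVRB.

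Set against the enzymes downstream of it, HMOX1 was above the biliverdin reductases in NFE2L1 libraries only. HMOX1 TPM divided by the summed TPM of BLVRA and BLVRB was 1.15 ± 0.0342 with NFE2L1, 0.122 ± 0.0168 with NFE2L1DC and 0.165 ± 0.0231 in control (SD, n = 3 each). The summed reductases themselves were 242 ± 17.7 TPM, 221 ± 10.7 TPM and 218 ± 19.9 TPM in NFE2L1, NFE2L1DC and control libraries, and these ranges overlapped.

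**Figure D2:**
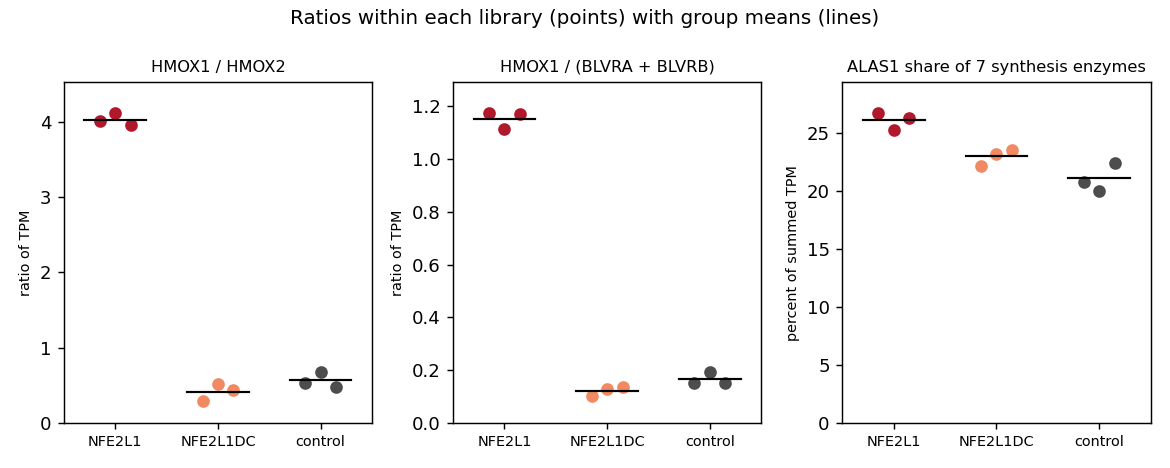
Ratios of TPM within each library, with HMOX1 over HMOX2 on the left, HMOX1 over summed BLVRA and BLVRB in the middle and ALAS1 as a percent of the summed TPM of 7 synthesis enzymes on the right, for NFE2L1, NFE2L1DC and control. Points are libraries and lines are means of 3. NFE2L1 libraries had HMOX1 to HMOX2 ratios of 3.96 to 4.12, against 0.285 to 0.516 for NFE2L1DC and 0.483 to 0.675 for control, and the mean ALAS1 share was 26.1%, 23.0% and 21.1% in the same groups, with a small overlap of NFE2L1DC and control.

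On the side of synthesis, ALAS1 was the 1 gene of the 8 tested members that passed the test. ALAS1 (ENSG00000023330, chromosome 3, 52198086 to 52214327, plus strand) was at 104, 99.8 and 106 TPM in NFE2L1 libraries, 84.2, 89.2 and 96.7 TPM in NFE2L1DC libraries and 78.8, 75.9 and 80.3 TPM in control libraries. The 3 groups did not overlap, with NFE2L1 above NFE2L1DC and NFE2L1DC above control. That order with no overlap held for 2.31% of the 14118 genes. ALAS1 rose 1.32-fold with NFE2L1 against control, a log2 fold change of 0.39 (SE 0.08, 95% interval 0.22 to 0.57, limma adjusted p = 0.0141), higher in 3 of 3 libraries. For NFE2L1DC against control it was 0.20 (95% interval 0.03 to 0.37, adjusted p = 0.178), and for NFE2L1 against NFE2L1DC also 0.20 (0.03 to 0.37, adjusted p = 0.532), and neither passed the test over all genes.

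The call on ALAS1 was a narrow one. Under median-of-ratios scaling, which takes away most of the shift of 0.17 in the median log2 fold change of all genes for NFE2L1 against control, the ALAS1 value was 0.21 and did not pass (adjusted p = 0.261). It also missed the threshold without control replicate 2 (adjusted p = 0.0633), without NFE2L1 replicate 1 (0.0577) and without NFE2L1 replicate 3 (0.0655), at log2 fold changes of 0.37, 0.39 and 0.38. Without control replicate 3, which stood apart on the second principal component, it was 0.41 (adjusted p = 0.00644). That fit keeps control replicates 1 and 2, which lay apart on the first component. In it the count of all genes called rose from 1468 to 5056, so the lower p-value is not particular to ALAS1.

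RefSeq promoters (GRCh38.p14, 250 bases before to 50 bases after the annotated start) were found for 8 of the 9 genes, all but HMOX1. They were searched on both strands for TGACNNNGC, the core of the antioxidant response element bound by cap'n'collar factors with small MAF proteins. Of the 8 genes, 1 held it, FECH, at positions -38 to -30 counted from the start and in reverse complement. Of 34943 promoters of this length 13.3% held it, so 1 of 8 genes is near that share. No match says only that these letters are not in the window, and a match is a description, not a shown site. The FECH match (chr18:57586721-57586750, minus strand) is printed with its motif in capitals, and the stretch before the start of ALAS1 (chr3:52197833-52198082, plus strand) as that of the called synthesis gene, which held no match. Both read 5′ to 3′ on the gene's strand.
FECH: ccgggagggcGCGAGGTCAgggggctgggg
ALAS1: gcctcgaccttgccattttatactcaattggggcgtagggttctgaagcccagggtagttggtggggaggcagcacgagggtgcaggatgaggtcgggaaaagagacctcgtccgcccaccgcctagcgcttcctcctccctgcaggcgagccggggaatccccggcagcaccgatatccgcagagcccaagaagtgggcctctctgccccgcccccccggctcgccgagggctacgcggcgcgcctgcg

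The other synthesis members were not called in any contrast. ALAD (ENSG00000148218, chromosome 9, 113386317 to 113401333, minus strand), the second enzyme of the path, was at 15.8, 17.2 and 16.2 TPM in NFE2L1 libraries, 14.7, 13.3 and 15.3 TPM in NFE2L1DC libraries and 14.2, 13.5 and 19.1 TPM in control libraries. NFE2L1 and NFE2L1DC libraries did not overlap, and control replicate 3 was the highest of all 9. UROD (ENSG00000126088, chromosome 1, 45012147 to 45015575, plus strand), which trims the ring's side chains, was the most abundant synthesis gene, at 150, 158 and 154 TPM in NFE2L1 libraries, 161, 163 and 174 TPM in NFE2L1DC libraries and 173, 169 and 148 TPM in control libraries. NFE2L1 lay under NFE2L1DC without overlap, and control spanned both. The log2 fold changes of NFE2L1 against NFE2L1DC were 0.17 for ALAD (95% interval -0.15 to 0.49, limma adjusted p = 0.851) and -0.11 for UROD (-0.28 to 0.07, adjusted p = 0.813).

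CPOX (ENSG00000080819, chromosome 3, 98579446 to 98593723, minus strand), a mitochondrial oxidase, was at 12.9, 18.0 and 12.1 TPM in NFE2L1 libraries, 18.9, 13.5 and 12.5 TPM in NFE2L1DC libraries and 10.7, 11.9 and 14.7 TPM in control libraries. FECH (ENSG00000066926, chromosome 18, 57548283 to 57586772, minus strand), which inserts the iron, was at 18.2, 14.6 and 15.5 TPM in NFE2L1 libraries, 17.4, 12.2 and 14.8 TPM in NFE2L1DC libraries and 12.7, 16.2 and 16.1 TPM in control libraries. Both genes spread as widely within groups as between them, and CPOX overlaps the gene AC021660.3 on the same strand. For NFE2L1 against control the log2 fold change was 0.18 for CPOX (95% interval -0.27 to 0.63, limma adjusted p = 0.546) and 0.10 for FECH (-0.26 to 0.46, adjusted p = 0.688). The intervals allow changes of up to 0.63 and 0.46 on the log2 scale, larger than the one called for ALAS1.

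**Figure D3:**
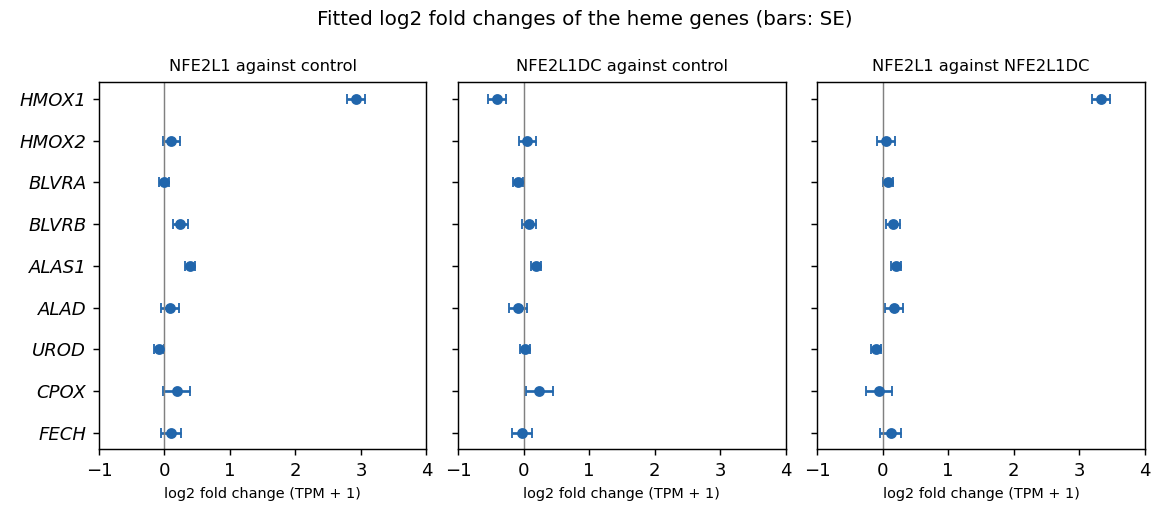
Log2 fold changes on the log2(TPM + 1) scale (horizontal axes) of the 9 heme genes in the 3 contrasts, with standard errors as bars. HMOX1 lay at 2.93 and 3.34 where NFE2L1 was compared with control and with NFE2L1DC, and the other 8 genes lay between -0.11 and 0.39 in all 3.

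Counted together, 1 of the 8 members other than HMOX1 was called higher and none lower with NFE2L1 against control, or 12.5%, while 10.4% of all 14118 genes were called, 7.83% higher and 2.57% lower. With NFE2L1DC against control limma called 0 of the 8, beside 3.61% of all genes (2.06% higher and 1.54% lower). With NFE2L1 against NFE2L1DC it again called 0, beside 0.793% of all genes (0.715% higher and 0.0779% lower). At an unadjusted p under 0.05 the count was 1 of 8 in each of the 3 contrasts, where all genes had 30.4%, 21.7% and 8.19%. The members' shares were thus near or under the background. The median log2 fold change of the 8 was 0.10 for NFE2L1 against control, beside 0.17 over all genes, 0.04 for NFE2L1DC against control, beside 0.12, and 0.10 for NFE2L1 against NFE2L1DC, beside 0.06. Groups did not overlap for 1 of the 8 with NFE2L1 against control (32.1% of all genes, 22.6% higher and 9.53% lower) and for 1 with NFE2L1DC against control (22.7%, of which 13.7% higher). With NFE2L1 against NFE2L1DC they did not overlap for 3, ALAS1 and ALAD higher and UROD lower (18.0% of all genes, 12.4% higher and 5.55% lower). All 9 members reached 1 TPM in every library, so none entered through a single group.

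Further synthesis genes outside the members were ALAS2, UROS and PPOX. ALAS2, the erythroid form of the first enzyme, was at most 0.0739 TPM. UROS, which closes the ring, was at 61.3, 56.6 and 65.1 TPM in NFE2L1 libraries, 52.5, 61.5 and 67.9 TPM in NFE2L1DC libraries and 47.7, 51.6 and 44.0 TPM in control libraries. PPOX, which acts between CPOX and FECH, was at 28.4, 30.8 and 32.4 TPM in NFE2L1 libraries, 30.8, 31.7 and 29.2 TPM in NFE2L1DC libraries and 41.8, 40.0 and 35.1 TPM in control libraries. UROS lay above control and PPOX under it in both lines without overlap, and neither passed the test, with log2 fold changes for NFE2L1 against control of 0.35 (limma adjusted p = 0.0795) and -0.34 (adjusted p = 0.0599).

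Summed over ALAS1, ALAD, UROS, UROD, CPOX, PPOX and FECH, these 7 synthesis enzymes came to 395.6 ± 5.61 TPM with NFE2L1, 391 ± 16.3 TPM with NFE2L1DC and 372 ± 12.2 TPM in control (SD, n = 3 each). ALAS1 took 26.1% ± 0.755 of that sum with NFE2L1, 23.0% ± 0.721 with NFE2L1DC and 21.1% ± 1.23 in control. HMOX1 TPM over ALAS1 TPM was 2.70 ± 0.186 with NFE2L1, 0.297 ± 0.0166 with NFE2L1DC and 0.464 ± 0.104 in control. Among the 9 members HMOX1 was the most abundant in all NFE2L1 libraries, whereas UROD was in all NFE2L1DC and control libraries. HMOX1 ranked 505 to 538 among all genes of an NFE2L1 library, 4162 to 4924 of an NFE2L1DC library and 2899 to 4144 of a control library.

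Genes that carry substrates and heme across membranes were looked at next. Of 12 genes of mitochondrial support, among them the glycine carrier SLC25A38 and the iron carriers SLC25A37 and SLC25A28, limma called 0 in any contrast, with 4, 3 and 1 at an unadjusted p under 0.05 for NFE2L1 against control, NFE2L1DC against control and NFE2L1 against NFE2L1DC. All genes had 30.4%, 21.7% and 8.19% at that level, so these counts lie near the background. Of 10 tested genes of heme transport and binding, 3 rose and none fell with NFE2L1 against control (30%, median log2 fold change 0.20), beside 10.4% called, 7.83% higher and a median of 0.17 over all genes. With NFE2L1DC against control 0 were called and 1 had an unadjusted p under 0.05, beside 3.61% and 21.7% of all genes. SLC48A1, which moves heme out of lysosomes, rose to 45.8 ± 2.35 TPM with NFE2L1, against 33.1 ± 2.85 TPM in control, and was at 38.4 ± 1.94 TPM with NFE2L1DC. Its log2 fold change for NFE2L1 against control was 0.46 (SE 0.09, limma adjusted p = 0.0191), but 0.28 and not called under median-of-ratios scaling (adjusted p = 0.211). ABCG2, an efflux pump that carries porphyrins and heme, was at 14.4, 12.1 and 14.2 TPM in NFE2L1 libraries, 12.6, 9.16 and 9.01 TPM in NFE2L1DC libraries and 5.79, 3.65 and 7.86 TPM in control libraries (log2 fold change 1.15 for NFE2L1 against control, SE 0.23, adjusted p = 0.0171). The heme-binding membrane protein PGRMC1 rose by 0.89 (SE 0.20, adjusted p = 0.0263), with control replicate 3 at 102 TPM and the other control libraries at 55.7 and 66.3 TPM. The plasma scavengers HPX and HP and the receptor CD163 did not enter the test, at no more than 0.480 TPM.

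Iron freed from heme is stored in ferritin or exported. The list looked at here also held genes of iron uptake, among them TFRC. Of 9 tested genes of this list, 1 rose with NFE2L1 against control and none fell, or 11.1% beside 10.4% of all genes. In the contrasts of NFE2L1DC with control and of NFE2L1 with NFE2L1DC limma called 0, with 1 and 0 at an unadjusted p under 0.05. Over all genes, 3.61% and 0.793% were called in these contrasts, and 21.7% and 8.19% had an unadjusted p under 0.05. The heavy chain of ferritin, FTH1, had a log2 fold change of 0.23 (adjusted p = 0.129) and the light chain FTL 0.01 (adjusted p = 0.958) for NFE2L1 against control. The called gene was the transferrin receptor TFRC, at 247, 240.5 and 226 TPM in NFE2L1 libraries, 243, 173 and 170 TPM in NFE2L1DC libraries and 74.1, 73.6 and 175 TPM in control libraries (log2 fold change 1.26, SE 0.30, limma adjusted p = 0.0293). Control replicate 3 lay within the NFE2L1DC range. The iron exporter SLC40A1 was listed at 0 in all libraries.

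For bilirubin, UGT1A1, which conjugates it, the uptake carriers SLCO1B1 and SLCO1B3 and the binding proteins GSTA1 and GSTA2 stayed under 0.2 TPM. Of the 3 export pumps tested, 2 rose with NFE2L1 against control, beside 10.4% of all genes called and 7.83% higher. ABCC3 was at 38.6, 30.2 and 30.8 TPM in NFE2L1 libraries, 22.2, 17.5 and 29.5 TPM in NFE2L1DC libraries and 12.5, 12.3 and 16.1 TPM in control libraries (log2 fold change 1.22, SE 0.19, limma adjusted p = 0.00552). ABCC2, the canalicular pump for conjugated bilirubin, was at 53.3, 49.7 and 52.8 TPM in NFE2L1 libraries, 41.3, 27.9 and 30.8 TPM in NFE2L1DC libraries and 20.3, 17.4 and 37.0 TPM in control libraries (1.10, SE 0.25, adjusted p = 0.0255). Neither was called with NFE2L1DC against control.

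Among 16 tested regulators of HMOX1 and ALAS1, 3 rose with NFE2L1 against control and none fell (18.8%, median log2 fold change 0.33), beside 10.4% of all genes and a median of 0.17. With NFE2L1DC against control limma called 0, with 3 at an unadjusted p under 0.05, beside 3.61% and 21.7% of all genes. With NFE2L1 against NFE2L1DC 1 rose (6.25%), beside 0.793% of all genes called and 0.715% higher. JUN, an AP-1 subunit, was at 6.81, 7.42 and 6.71 TPM in NFE2L1 libraries, 3.01, 3.06 and 2.44 TPM in NFE2L1DC libraries and 2.43, 2.37 and 2.52 TPM in control libraries. As for HMOX1, the NFE2L1 libraries lay apart and the other groups together. The log2 fold change of JUN was 1.21 (SE 0.13, limma adjusted p = 0.000813) against control and 1.06 (SE 0.13, adjusted p = 0.00694) against NFE2L1DC. FOS rose by 0.74 (adjusted p = 0.0263) and EGR1 by 0.68 (adjusted p = 0.0202) with NFE2L1 against control. The factors best known for HMOX1 were not called: NFE2L2 stood at 22.1, 14.4 and 25.5 TPM in NFE2L1 libraries, 16.9, 14.8 and 13.6 TPM in NFE2L1DC libraries and 12.1, 13.7 and 36.6 TPM in control libraries. BACH1 stood at 1.60, 2.19 and 2.76 TPM in NFE2L1 libraries, 1.55, 2.48 and 1.59 TPM in NFE2L1DC libraries and 1.24, 1.22 and 2.91 TPM in control libraries. In both genes control replicate 3 was the highest library. These are transcript levels, and the protein and activity of NFE2L2 and BACH1 were not measured. Of the genes that respond to NFE2L2 and related factors, 20 others besides HMOX1 were examined.

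Of these 20 antioxidant response element genes, AKR1B10 reached 1 TPM in NFE2L1 libraries alone and is left out of the counts, since it entered the fit only through the group where it was high. Of the other 19, 4 rose and 3 fell with NFE2L1 against control, or 36.8% beside 10.4% of all genes, with a median log2 fold change of 0.00, beside 0.17. With NFE2L1DC against control 2 rose and none fell (10.5%, median 0.15, beside 3.61% and 0.12). With NFE2L1 against NFE2L1DC limma called 0 of the 19, beside 0.793% of all genes. At an unadjusted p under 0.05 there were 9 of the 19, in both directions, beside 8.19% of all genes. SLC7A11, the cystine carrier, was at 3.67, 3.43 and 4.55 TPM in NFE2L1 libraries, 2.89, 2.16 and 2.16 TPM in NFE2L1DC libraries and 1.08, 0.847 and 2.08 TPM in control libraries (log2 fold change 1.09, SE 0.21, limma adjusted p = 0.0145). AKR1B10, an aldo-keto reductase, was at 2.13, 1.77 and 1.75 TPM in NFE2L1 libraries, 0.553, 0.191 and 0.299 TPM in NFE2L1DC libraries and 0.735, 0.150 and 0.251 TPM in control libraries. Like HMOX1 it was high in NFE2L1 libraries alone, at far lower levels, and these values are a description with no test. TXNRD1, thioredoxin reductase, rose by 0.86 (SE 0.21, adjusted p = 0.0353) and GCLM, of glutathione synthesis, by 0.79 (adjusted p = 0.042).

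SRXN1, which repairs peroxiredoxins, rose in both lines, by 0.35 with NFE2L1 (adjusted p = 0.0227) and by 0.36 with NFE2L1DC (adjusted p = 0.0387) against the shared control libraries. Under median-of-ratios scaling it was 0.17 and 0.24 in the same contrasts and was not called (adjusted p = 0.343 and 0.256). OSGIN1 rose with NFE2L1DC by 0.66 (adjusted p = 0.0323) and had 0.35 with NFE2L1 (adjusted p = 0.114). On the lower side with NFE2L1 were EPHX1 (log2 fold change -0.50, adjusted p = 0.00905), GSR (-0.46, adjusted p = 0.0232) and TKT (-0.29, adjusted p = 0.0284). NQO1, a widely used reporter of NFE2L2 activity, was at 342, 311 and 458 TPM in NFE2L1 libraries, 363, 464 and 384 TPM in NFE2L1DC libraries and 447, 330.4 and 308 TPM in control libraries, with overlapping groups. No other gene of the list reached the log2 fold change of HMOX1, which was selected on its values. The 1 added to TPM shrinks the values of genes at low TPM. With 0.1 added in its place, NFE2L1 against control gave 1.56 for SLC7A11, beside 1.09, and 2.24 for AKR1B10, beside 1.08. HMOX1 was then at 2.96, beside 2.93.

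**Figure D4:**
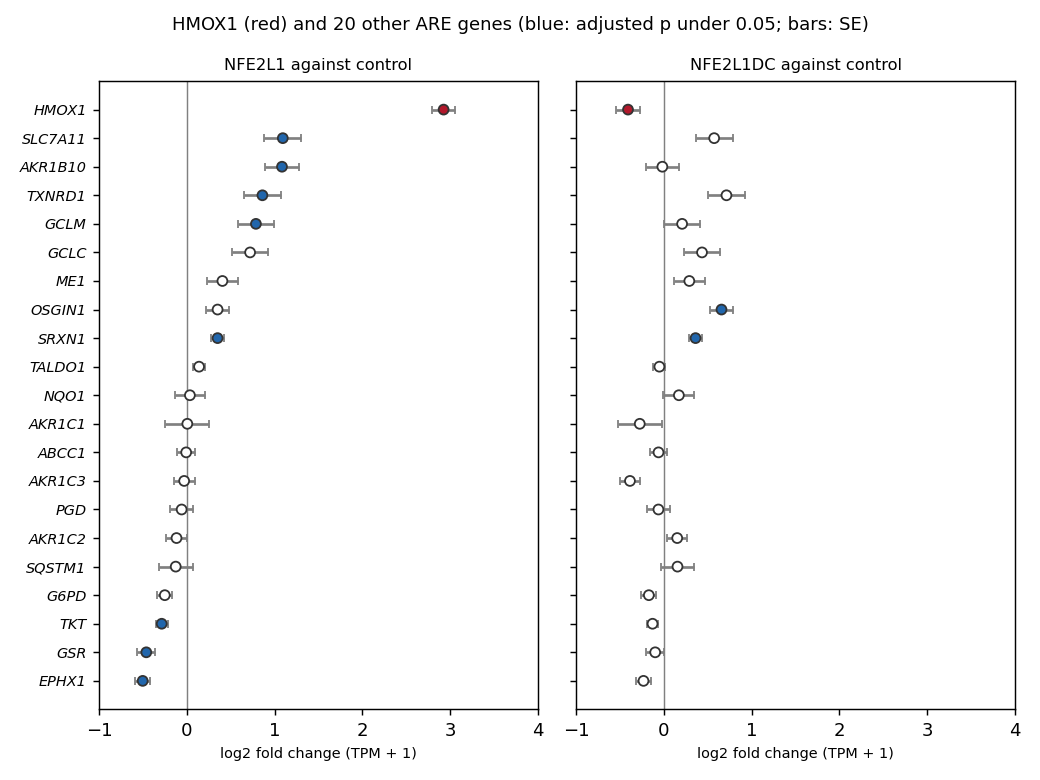
Log2 fold changes on the log2(TPM + 1) scale (horizontal axes) of HMOX1, in red, and 20 other antioxidant response element genes for NFE2L1 against control (left) and NFE2L1DC against control (right), with standard errors as bars and filled blue points where the adjusted p was under 0.05. HMOX1 was at 2.93 on the left and -0.41 on the right, and the highest of the other genes on the left was SLC7A11, at 1.09. AKR1B10 entered the fit through NFE2L1 libraries alone, so the blue fill of its point on the left is not to be read as a test.

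Proteins that use heme formed the last list. Of 31 hemoproteins and genes of their assembly, 18 were tested, and liver cytochromes such as CYP3A4 and CYP7A1 were listed at 0 in all libraries. With NFE2L1 against control 6 rose and none fell (33.3%, median log2 fold change 0.39), beside 10.4% called, 7.83% higher and a median of 0.17 over all genes. With NFE2L1DC against control 1 rose (5.56%, median 0.23, beside 3.61% and 0.12). Between the lines limma called 0, with 1 at an unadjusted p under 0.05, beside 0.793% and 8.19% of all genes. SDHC, which holds the heme of succinate dehydrogenase together with SDHD, was at 141, 160.3 and 140.5 TPM in NFE2L1 libraries, 155, 91.7 and 142 TPM in NFE2L1DC libraries and 81.3, 72.6 and 52.9 TPM in control libraries (log2 fold change 1.10, SE 0.21, limma adjusted p = 0.0125). SDHD was at 98.7, 106 and 99.4 TPM in NFE2L1 libraries, 72.6, 82.1 and 53.2 TPM in NFE2L1DC libraries and 41.8, 30.2 and 91.0 TPM in control libraries, and did not pass (1.04, adjusted p = 0.0752). HCCS, which attaches heme to cytochrome c, rose by 0.38 in both lines (adjusted p = 0.0177 with NFE2L1 and 0.0365 with NFE2L1DC). With NFE2L1 it was 0.20 under median-of-ratios scaling (adjusted p = 0.215) and 0.23 after the GC and length correction (adjusted p = 0.108), not called in either. Catalase, CAT, rose by 0.69 (adjusted p = 0.0484) and cytochrome c, CYCS, by 0.67 (adjusted p = 0.046) with NFE2L1 against control. In CAT and CYCS control replicate 3 was the highest control library, at 31.5 and 50.8 TPM.

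The genes whose profile was most like that of HMOX1 were sought by Pearson's correlation of log2(TPM + 1) over the 9 libraries, among 7706 genes with a group mean of at least 10 TPM. The 5 highest were IFI35 (r = 0.992), IRF7 (0.982), TRIM21 (0.982), SECTM1 (0.974) and IFITM1 (0.969). The points share 3 groups, and any gene high in NFE2L1 libraries alone scores well, so r is a description. IFI35 was at 56.4, 59.0 and 55.4 TPM in NFE2L1 libraries, 17.0, 18.1 and 18.1 TPM in NFE2L1DC libraries and 24.3, 25.5 and 20.1 TPM in control libraries. It had the order NFE2L1, control, NFE2L1DC seen in HMOX1, and like HMOX1 its middle value in control was above that of NFE2L1DC. IRF7, an interferon regulatory factor, was at 29.8 ± 2.93 TPM with NFE2L1, 4.31 ± 0.621 TPM with NFE2L1DC and 5.01 ± 0.520 TPM in control (SD, n = 3 each). Of the other heme genes the closest was ALAS1, with r = 0.759, at rank 244 of 7706, followed by BLVRB at 0.621 and rank 674. UROD had the lowest, at -0.51.

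**Figure D5:**
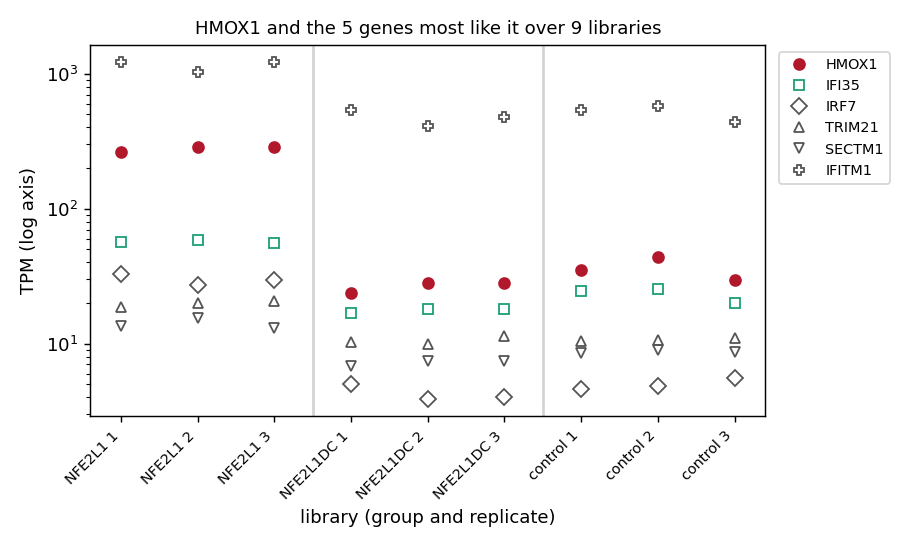
TPM (vertical axis, logarithmic) of HMOX1, in filled red, and the 5 genes with the highest correlation to it in each of the 9 libraries, with NFE2L1, NFE2L1DC and control libraries from left to right. All 6 genes were higher in the 3 NFE2L1 libraries than in any other, and HMOX1 had the widest step, 279 TPM on average with NFE2L1 and 26.7 and 36.2 TPM with NFE2L1DC and in control.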

How the data were processed

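RNA-seq was done on 3 libraries per group. The deposited table holds TPM values that the authors scaled within each library (totals 999983.0 to 999991.7), and no counts, so depth is unknown and no counting interval can be given. The submitters' processing notes name CASAVA and GRCh38. The aligner, quantifier and annotation were not stated there or in the labels. GENCODE release 29 matched 57836 of 58174 identifiers and gave coordinates, GC content and length.

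Values were tested as log2(TPM + 1) with limma 3.58.1 (trend) in R 4.3.3, after keeping genes with at least 1 TPM in 3 or more of 9 libraries (14118 genes). The fit had 1 mean per group, 2-sided tests, Benjamini-Hochberg adjustment over all genes and a threshold of 0.05. Intervals are 95%, from the moderated fit, unadjusted. Whether replicates came from separate cultures is not in the labels, and p-values then reflect the spread among these samples, which may be technical. Both lines share the control libraries. The procedure was tested on simulated data with independent noise in each gene. That setting holds no shift of a whole library, so it does not cover the differences among the control libraries.

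Members and the 8 pathway lists were chosen with earlier results of these data known. Genes named from a list are up to 3 called members per contrast with the largest change. List members outside that rule (UROS, PPOX, FTH1, FTL, NFE2L2, BACH1, GCLM, EPHX1, GSR, TKT, NQO1, SDHD and genes named as absent or untested) were named after their values were seen. The alternatives were median-of-ratios scaling, a pseudocount of 0.1, no filter, a filter of 5 TPM, a replicate block, 2 groups only, correction for GC content and length by splines with 4 degrees of freedom, and leaving out each library. Some listed genes are not reported here.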

Additional observations from a re-analysis of the deposited data

How the results depend on the processing

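HMOX1 kept its direction in all 16 alternatives of each contrast, with log2 fold changes of 2.74 to 3.12 for NFE2L1 against control, -0.54 to -0.27 for NFE2L1DC against control and 3.26 to 3.39 for NFE2L1 against NFE2L1DC. HMOX1 was selected on these same values, so this is a description. Several alternatives cannot change a difference of group means. These are the filters, the replicate block, 2 groups only and leaving out a library of the group outside the contrast. Of the other 8 members, ALAS1 was the 1 called for NFE2L1 against control; none was called under median-of-ratios scaling (0 of 8), 2 were after the GC and length correction, adding BLVRB, and 0 to 1 when single libraries were left out. None of these 8 was called by limma in the other contrasts under any alternative.

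The count of all genes called for NFE2L1 against control, 1468, was 947 with no filter, 872 with the replicate block, 881 with 2 groups only and 501 to 5056 with single libraries left out, the highest without control replicate 3. Under median-of-ratios scaling 542 were higher and 526 lower, beside 1105 and 363. For NFE2L1DC against control, 509, it was 317 under that scaling (119 higher and 198 lower, beside 291 and 218), 198 with the replicate block, 100 with 2 groups only and 110 to 3440 with single libraries left out, again highest without control replicate 3. The GC and length correction gave 499 higher and 170 lower. For NFE2L1 against NFE2L1DC, 112, it was 58 with the replicate block and 36 to 148 with single libraries left out. The replicate numbers of the labels did not pair the samples (correlations of same-numbered deviations from -0.189 to 0.109), and the block kept the call on ALAS1 (adjusted p = 0.0326).

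Signs turned only for values near 0 that did not pass the test in either fit. For NFE2L1 against control, median-of-ratios scaling gave -0.0757 for HMOX2, -0.0924 for ALAD and -0.0740 for FECH, and the GC and length correction gave 0.13 for BLVRA, 0.0360 for UROD and -0.0756 for FECH. For NFE2L1DC against control, that scaling gave -0.0610 for HMOX2, -0.0378 for BLVRB and -0.10 for UROD, and the correction 0.0622 for BLVRA. For NFE2L1 against NFE2L1DC that scaling gave -0.0147 for HMOX2. With single libraries left out, the ranges that crossed 0 for NFE2L1 against control were -0.0531 to 0.0297 for BLVRA, -0.00798 to 0.23 for ALAD and -0.00899 to 0.16 for FECH. For NFE2L1DC against control they were -0.10 to 0.21 for HMOX2, -0.0203 to 0.14 for BLVRB, -0.18 to 0.0560 for ALAD, -0.0454 to 0.0640 for UROD and -0.14 to 0.10 for FECH. For NFE2L1 against NFE2L1DC they were -0.10 to 0.20 for HMOX2 and -0.22 to 0.11 for CPOX. The cause was not tested. Of the list genes named as called for NFE2L1 against control, ABCC3, JUN and EPHX1 kept their call in all 16 alternatives. CAT lost it in 12, CYCS in 11, GCLM and TKT in 9, TFRC, PGRMC1 and FOS in 8, ABCC2, TXNRD1 and HCCS in 7, SRXN1 in 6, SLC48A1 and GSR in 5, ABCG2 in 3 and SDHC in 1 of 16, and EGR1 and SLC7A11 in 4 of 15. EGR1 was 1.04 with the pseudocount of 0.1, beside 0.68, and under median-of-ratios scaling TKT was -0.47, beside -0.29 (adjusted p = 0.0568). The GC and length correction gave -0.33 for EPHX1, beside -0.50. For NFE2L1DC against control, OSGIN1 lost its call in 8, SRXN1 in 10 and HCCS in 11. Depth is unknown and limits all values near 0.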
